A study of Mus musculus with 9 samples.

Results

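The 10 genes described here encode carboxylesterases, enzymes that cut ester bonds. They are Ces1c, Ces1d, Ces1e, Ces1f and Ces1g of the first subfamily, Ces2a, Ces2c and Ces2e of the second, and Ces3a and Ces3b of the third. They were chosen by symbol from the deposited liver expression table of 25781 genes, and all 10 were found there. The study sequenced RNA from livers of Swiss mice aged 10 to 12 weeks, in 3 groups of 3 libraries. One group received sodium selenite (Na2SeO3, 50 µg/kg) and β-CYP (40 mg/kg), one received β-CYP alone at the same dose (40 mg/kg), and one was the control group. The study calls the β-CYP group an injury group and the group with selenite a repair group. β-CYP is written here as the labels have it, with no longer name given, and no group had selenite alone. Nothing in the labels ties each library to its own mouse, and p-values therefore refer to the spread among libraries, part of which may be technical.

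Carboxylesterases of the liver hydrolyse esters and amides in drugs, insecticides of the pyrethroid class, and lipids such as triacylglycerol and cholesteryl esters. Most of them sit in the lumen of the endoplasmic reticulum, held there by a short retrieval signal at the end of the protein that KDEL receptors recognise, while others leave the cell and circulate in plasma. Mice carry many more copies of these genes than humans do, so that several close relatives share the work that a single human enzyme does.

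The ends of the coding sequences are shown because they divide the 10 genes by the retrieval signal. Each line gives the last 30 bases before the stop codon, 5′ to 3′, from the GENCODE transcripts of mouse build GRCm38, all on chromosome 8, with the last 4 codons in capitals.
Ces1c: acagaccctactgaacacACAGAACACAAA
Ces1d: aggccatcccacagggaaCATGTTGAGCTC
Ces1e: aagcaactgccgacagaaCACACTGAGCTG
Ces1f: aaacaaccccagccatacCACAATGAGCTG
Ces1g: aggtcatcccatagggaaCATGTTGAACTG
Ces2a: aagggttctcaggacaagCATGCAGAGCTG
Ces2c: aaggcttctcaggacaagCACAGGGAGCTT
Ces2e: aaggggtctcaggagaggCACAAAGAGTTG
Ces3a: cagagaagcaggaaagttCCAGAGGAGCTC
Ces3b: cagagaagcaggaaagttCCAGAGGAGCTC

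In 7 of the 10 genes the last 4 codons were a histidine codon, any codon, a glutamate codon and a leucine codon, which is the form of the retrieval signal in this family. Ces1c ended differently, as is known for the plasma esterase it encodes. Ces3a and Ces3b had the same 30 bases, which close with glutamate and leucine codons but have no histidine codon in the first of the 4 places. Over the whole coding sequence Ces3a and Ces3b were 95.3% identical, the closest pair among the 10. The nearest relative of Ces1c was Ces1b, at 88.8% identity, and that of Ces2c was Ces2b, at 91.3%.

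Close copies limit what a read can tell. Of the 50-base stretches in Ces3a transcripts 25.6% also occur in another Ces gene, all of them in Ces3b, and the share was 26.2% for Ces3b. For Ces2c it was 34.3%, mostly shared with the pseudogene Ces2d-ps, and for Ces1c it was 10.3%. The other 6 genes shared between 0.301% and 3.30% of their stretches. The sources used here do not state how reads that match several genes were counted, so values of Ces3a, Ces3b, Ces2c and Ces1c are uncertain. These shares do not give the size of that uncertainty, which also depends on the level of the partner gene. Ces1d overlaps 1 other annotated gene on the same strand and Ces3a overlaps 1 on the opposite strand, and no setting for strand is given.

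The libraries held 28630269 to 36029560 reads assigned to genes. Levels are given as scaled counts, which are reads divided by a factor for each library. Control library 2 stood apart from the other control libraries. Its chi-square per degree of freedom over all genes was 201.4 and 182.3 against them, where the other pairs inside a group gave 8.97 to 13.2. The changes of Ces3b and the numbers called among the 10 are given with and without it. Most other results are given only with it. Marker sums below are reads and are not divided by the library factors. Albumin and 5 other hepatocyte markers summed to 3152113 to 3253208 reads in selenite plus β-CYP libraries, 3469377 to 3755197 in β-CYP libraries and 2635067 to 2964017 in control libraries. Single markers were also compared with the limma test described below. In selenite plus β-CYP against control 2 of the 6 rose and 4 fell, beside 14.4% and 14.5% of all genes. Against β-CYP 1 rose and 4 fell, beside 11.6% and 12.3%. In β-CYP against control 3 rose and 1 fell, beside 7.72% and 8.58%. The 10 markers of pancreatic acinar cells, all of them in the table, summed to 31851 to 32565 reads in selenite plus β-CYP libraries, 1157 to 1250 in β-CYP libraries and 977 to 1075 in control libraries. Of these, Cela3b, Cpa1, Cpb1, Prss2, Pnlip and Pla2g1b were at 0 in every β-CYP and control library. Small intestine markers, of which 8 of 10 were in the table, summed to 1380 to 1435, 1976 to 2229 and 1648 to 1949 reads in selenite plus β-CYP, β-CYP and control libraries, and were mostly Fabp2, a fatty acid binding protein. Of the 7 tested, 4 rose and 1 fell in selenite plus β-CYP against control, beside 14.4% and 14.5% of all genes. Against β-CYP 0 rose and 1 fell, beside 11.6% and 12.3%. In β-CYP against control 1 rose and 0 fell, beside 7.72% and 8.58%. Lct, Sis, Muc2 and Krt20 were at 0 in every control library and at 10 reads or fewer in every other. In selenite plus β-CYP, β-CYP and control libraries neutrophil markers summed to 513 to 647, 352 to 431 and 61 to 74 reads. Macrophage markers summed to 6959 to 7333, 5195 to 5612 and 5056 to 5454 in the same order of groups. Adipocyte markers summed to 1004 to 1057, 1623 to 1663 and 409 to 460 in that order, and were mostly Fabp4 and Plin4. Adipoq, Plin1 and Retn were at 0 in every β-CYP library, where Adipoq had 5 to 18 reads with selenite and 7 to 18 in controls. Kidney markers stayed at 5 reads or fewer. Of 4 neutrophil markers tested 4 rose in selenite plus β-CYP against control, 0 against β-CYP and 3 in β-CYP against control, and 0 fell. Of 5 macrophage markers 3, 4 and 0 rose and 0, 0 and 1 fell in the same comparisons. Of 6 adipocyte markers tested 2, 2 and 2 rose and 0, 1 and 1 fell. The shares of all genes were 14.4%, 11.6% and 7.72% for a rise and 14.5%, 12.3% and 8.58% for a fall. The part of other cells in the results below was not tested, and in whole liver RNA fewer cells of a type and less RNA per cell cannot be told apart.

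The 10 esterases together made up a smaller part of the RNA in both treated groups. Their summed scaled counts were 136120, 137150 and 136890 in the 3 selenite plus β-CYP libraries. The sums were 174210, 175290 and 173040 in β-CYP libraries. Control libraries had 206940, 208030 and 207360. The groups were separate, and the spread inside a group was small beside the gaps between them, with SDs of 536, 1128 and 545 in selenite plus β-CYP, β-CYP and control libraries (n = 3 each). The ratio of the mean sums was 0.840 for β-CYP over control, 0.785 for selenite plus β-CYP over β-CYP and 0.659 for selenite plus β-CYP over control. These sums and ratios rest on the scaling of the table and were not computed under another. After quantile normalization Ces1c and Ces3a, the largest parts of the sum, changed by only -0.01 and -0.06 (log2) between the treated groups. Ces1d, Ces1f, Ces2a, Ces2c and Ces2e kept their falls there. As a share of all reads the 10 genes took 0.445% to 0.450% in selenite plus β-CYP libraries, 0.520% to 0.525% in β-CYP libraries and 0.577% to 0.645% in control libraries. The low end in controls was library 2, and control libraries 1 and 3 had 0.645% and 0.634%.

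The 3 subfamilies did not move by the same ratio. The 3 Ces2 genes summed to 6458 ± 83.9 scaled counts in selenite plus β-CYP libraries, 12938 ± 378 in β-CYP libraries and 11693 ± 274 in control libraries (SD, n = 3 each). The 5 Ces1 genes summed to 66730 ± 1044 in selenite plus β-CYP libraries, 89365 ± 846 in β-CYP libraries and 103850 ± 1439 in control libraries (SD, n = 3 each). The Ces2 sum was therefore highest under β-CYP, while the Ces1 sum was highest in controls. The 2 Ces3 genes followed the order of the Ces1 genes, with 63533 ± 1538 in selenite plus β-CYP libraries, 71877 ± 1430 in β-CYP libraries and 91901 ± 1784 in control libraries (SD, n = 3 each). These sums are a description and carry no test.

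**Figure D1:**
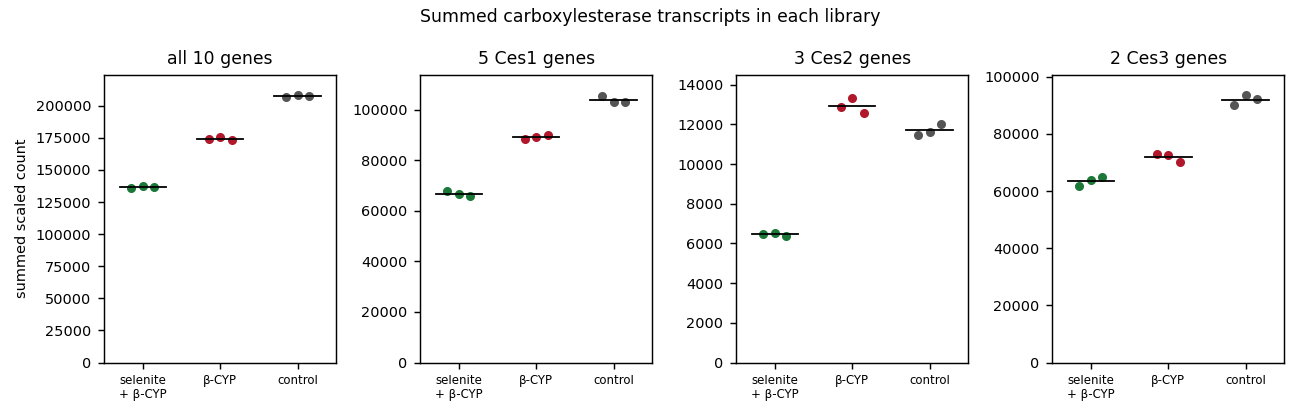
Summed scaled counts (y axis, from 0) of all 10 carboxylesterases and of the Ces1, Ces2 and Ces3 genes, with 1 point per library and a line at the mean of the selenite plus β-CYP, β-CYP and control groups (x axis). The sum of all 10 averages 136720, 174180 and 207440 in the 3 groups, whose points do not overlap, whereas the Ces2 sum is highest in the β-CYP libraries.

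Levels of different genes were compared per kb of exon. Ces1c and Ces3a were far above the other 8 in every group. Ces1c had 19619 scaled counts per kb in selenite plus β-CYP libraries, 24396 in β-CYP libraries and 29707 in control libraries. Ces3a had 19467, 23471 and 27919 in the same groups. In selenite plus β-CYP libraries the levels of these 2 genes overlapped, and in the other 2 groups Ces1c was above Ces3a in every library. Together they supplied 70.7%, 67.9% and 68.6% of the scaled counts of the 10 genes in selenite plus β-CYP, β-CYP and control libraries.

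Below them the order changed with treatment. In controls it ran Ces3b (7235 per kb), Ces1f (5094), Ces1d (3471), Ces1e (2541), Ces2a (2215), Ces2e (1888), Ces1g (1810) and Ces2c (597), with no overlap between neighbours. The 3 genes without the histidine-type end, Ces1c, Ces3a and Ces3b, thus led the order in controls. Under β-CYP, Ces1f (4869 per kb) stood above Ces3b (3984), and the rest kept their places. With selenite the order after Ces3b (4832) was Ces1e (2913), Ces1g (2011), Ces1f (1978), Ces1d (1467), Ces2e (1370), Ces2a (850) and Ces2c (328), and of these neighbours only Ces1g and Ces1f overlapped.

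Each of the 3 comparisons was tested across 20145 genes, those whose scaled count averaged 1 or more, and a gene was called when limma's adjusted p was under 0.05. The comparisons share libraries and are not independent of each other. All 10 esterases passed the filter on low values with at least 725 scaled counts in every library, so the filter removed none.

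In β-CYP livers against control livers, 5 of the 10 fell, 2 rose and 3 did not pass. Across all genes 8.58% fell, 7.72% rose and 16.3% passed in either direction. The median log2 change of the 10 was -0.14, against -0.0013 for all genes tested. Ces1c, Ces1d, Ces1g, Ces3a and Ces3b fell, and Ces2a and Ces2e rose. In 6 of the 10 genes all β-CYP libraries lay below all control libraries, which held for 16.2% of all genes, and in 2 they lay above, which held for 15.4%.

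In selenite plus β-CYP livers against β-CYP livers, 7 of the 10 fell, 1 rose and 2 did not pass. The shares over all genes were 12.3% for a fall, 11.6% for a rise and 23.9% for either. The median log2 change was -0.47 for the 10 genes and 0.02 for all genes tested. Ces1g rose, and Ces1e and Ces3b did not pass. The libraries of the 2 groups were apart for all 10 genes, 7 downwards and 3 upwards, against 18.5% and 19.3% of all genes.

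In selenite plus β-CYP livers against control livers all 10 passed, with 8 lower and 2 higher. Of all genes 14.5% were lower, 14.4% were higher and 28.9% passed in either direction. The median log2 change was -0.59 for the 10 genes and 0.03 for all genes tested. The 2 that rose were Ces1e and Ces1g. The groups did not overlap for any of the 10, in a direction that 20.4% of all genes shared for the 8 that fell and 21.4% for the 2 that rose. Without control library 2 the numbers called among the 10 were 6 in β-CYP against control, 9 in selenite plus β-CYP against β-CYP and 10 in selenite plus β-CYP against control, beside 7, 8 and 10 with it.

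Scaling the libraries to equal totals moved the median of all genes by 0.135 (log2) in selenite plus β-CYP against control and by 0.126 in selenite plus β-CYP against β-CYP. It called 3979 genes higher and 1764 lower against control, where the scaling of the table gave 2908 and 2915. Against β-CYP it called 3238 higher and 1335 lower, where the scaling of the table gave 2337 and 2468. All 10 esterases kept their calls in selenite plus β-CYP against control under it. In β-CYP against control it called 5 of the 10, where the scaling of the table called 7, and Ces2a and Ces2e were lost. Between the treated groups it called 9 of the 10, where the scaling of the table called 8. Ces3a was lost there, and Ces1e and Ces3b were gained.

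**Figure D2:**
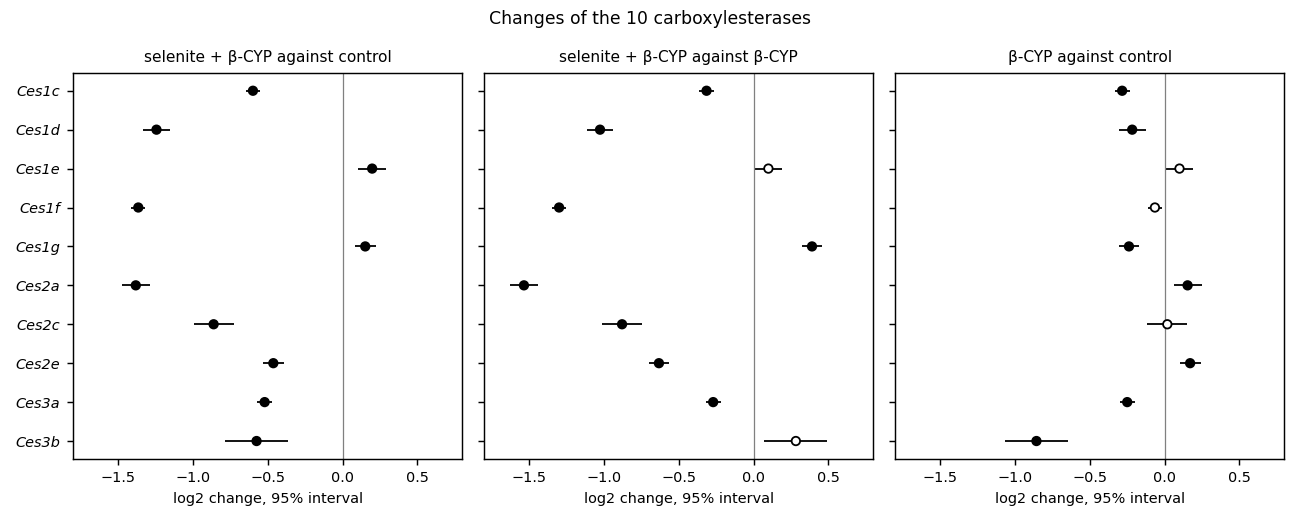
Log2 change (x axis) of each carboxylesterase (y axis) with its 95% interval from limma, in 3 comparisons, where filled points have an adjusted p under 0.05 and open points do not. Most points lie left of 0 in both comparisons of selenite plus β-CYP livers, and Ces3b lies farthest from 0 in β-CYP livers against control livers.

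Ces1c encodes the secreted esterase of mouse plasma. It was lower under β-CYP than in controls, and lower again with selenite. It had 46458, 45424 and 44846 scaled counts in selenite plus β-CYP libraries, 55611, 56921 and 57485 in β-CYP libraries and 70528, 67821 and 68678 in control libraries. The 3 groups were separate, and every control library was above every treated one. The log2 change was -0.28 ± 0.02 (SE) for β-CYP against control (limma, adjusted p = 1.6e-05) and -0.60 ± 0.02 for selenite plus β-CYP against control (limma, adjusted p = 3.7e-08). Against β-CYP alone it was -0.31 ± 0.02 (limma, adjusted p = 5.0e-06), and after quantile normalization this change was -0.01 with an adjusted p of 0.949 in limma.

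Ces1d encodes the triacylglycerol hydrolase that mobilises stored lipid for secretion in very low density lipoprotein. It fell modestly under β-CYP alone and much further with selenite. The scaled counts were 3649, 3402 and 3376 in selenite plus β-CYP libraries, 7369, 6803 and 7060 in β-CYP libraries and 8173, 8364 and 8131 in control libraries. The 3 groups did not overlap. The log2 change was -0.22 ± 0.04 (SE) for β-CYP against control (limma, adjusted p = 0.0046) and -1.03 ± 0.04 for selenite plus β-CYP against β-CYP (limma, adjusted p = 7.5e-08), 0.491 times its level. Against control the selenite plus β-CYP group was at 0.423 times, a log2 change of -1.24 ± 0.04 (limma, adjusted p = 1.3e-08).

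Ces1f encodes a second lipid hydrolase of the endoplasmic reticulum. It had the smallest adjusted p of the 10 genes between the treated groups. Libraries with selenite plus β-CYP had 6472, 6581 and 6443 scaled counts, β-CYP libraries had 16074, 15782 and 16131, and control libraries had 16643, 16765 and 16793. All β-CYP libraries were slightly below all controls, and those with selenite were far below both. For selenite plus β-CYP against β-CYP the log2 change was -1.30 ± 0.02 (SE), or 0.406 times (limma, adjusted p = 2.2e-10), and against control it was -1.36 ± 0.02 (limma, adjusted p = 9.1e-11). For β-CYP against control it was -0.07 ± 0.02 and did not pass (limma, adjusted p = 0.066), with a 95% interval of -0.11 to -0.02. It passed in 3 of the 19 alternatives, for example with observation weights on the reads (limma with voom, adjusted p = 0.022).

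Ces1g, whose loss in mice leads to fat in the liver, fell under β-CYP and rose above control with selenite. It had 4715, 4862 and 4832 scaled counts in selenite plus β-CYP libraries, 3708, 3731 and 3556 in β-CYP libraries and 4390, 4287 and 4292 in control libraries. No groups overlapped, and the control libraries lay between the treated groups. The log2 change was -0.24 ± 0.03 (SE) for β-CYP against control (limma, adjusted p = 0.00051) and 0.39 ± 0.03 for selenite plus β-CYP against β-CYP (limma, adjusted p = 1.1e-05). Against control the selenite plus β-CYP group stood at 1.11 times, a log2 change of 0.15 ± 0.03 (limma, adjusted p = 0.0045). Ces1g and Ces1d are each other's nearest relatives in coding sequence, at 81.6% identity, and with selenite they moved in opposite directions.

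Ces1e encodes egasyn, which holds β-glucuronidase in the endoplasmic reticulum. Its libraries ran highest with selenite. The scaled counts were 6507, 6405 and 6216 in selenite plus β-CYP libraries, 5761, 6118 and 5984 in β-CYP libraries and 5773, 5675 and 5239 in control libraries. β-CYP and control libraries overlapped, while those with selenite lay above both. The rise against control was 0.20 ± 0.04 (log2, SE; limma, adjusted p = 0.0056). The other 2 comparisons did not pass, at 0.10 ± 0.04 for β-CYP against control (limma, adjusted p = 0.15) and 0.10 ± 0.04 for selenite plus β-CYP against β-CYP (limma, adjusted p = 0.13), each with a 95% interval of 0.01 to 0.19. With equal totals the change between the treated groups was 0.23 and passed (limma, adjusted p = 0.019).

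The partner of egasyn and a receptor of the retrieval signal moved apart. Gusb, which encodes β-glucuronidase, fell by 0.42 on the log2 scale in selenite plus β-CYP livers against β-CYP livers (limma, adjusted p = 0.0015) and by 0.48 against controls (limma, adjusted p = 0.00049). Kdelr2, a receptor that returns proteins with the retrieval signal to the endoplasmic reticulum, rose by 0.64 against β-CYP (limma, adjusted p = 3.2e-06) and by 0.48 against controls (limma, adjusted p = 2.1e-05). Kdelr2 was lower under β-CYP alone, at -0.16 against controls (limma, adjusted p = 0.027), a call lost in 7 of the 19 alternatives, with adjusted p up to 0.10 in limma, among them the removal of control library 1 or 2 or of β-CYP library 1 or 2. The list held Gusb and 3 KDEL receptor genes. Of these 4, 0 rose and 1, Kdelr2, fell in β-CYP against control. In selenite plus β-CYP against β-CYP 2 of the receptor genes, Kdelr2 and Kdelr3, rose and Gusb fell. The rise of Kdelr3 was 2.83 (log2; limma, adjusted p = 0.026), and over the 19 alternatives it ranged between 1.31 and 4.05. That call was lost in 6 of them, among them the removal of β-CYP library 1 or 2 or of selenite plus β-CYP library 2 or 3. In selenite plus β-CYP against control 1 receptor gene, Kdelr2, rose and Gusb fell.

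The Ces2 enzymes act on smaller acyl groups than the Ces1 enzymes prefer and also hydrolyse diacylglycerol and triacylglycerol. Under β-CYP 2 of the 3 rose, and with selenite all 3 fell below the control level. Ces2a had 1962, 2038 and 2018 scaled counts in selenite plus β-CYP libraries, 5908, 6063 and 5477 in β-CYP libraries and 5099, 5268 and 5311 in control libraries. The β-CYP libraries were all above the controls, and those with selenite were far below both. Selenite plus β-CYP against β-CYP gave a log2 change of -1.53 ± 0.04 (SE), or 0.345 times, the largest of the 10 genes in any comparison (limma, adjusted p = 5.8e-09). Against control it was -1.38 ± 0.04 (limma, adjusted p = 8.2e-09).

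The rise of Ces2a under β-CYP was small, 0.15 ± 0.04 (log2, SE; limma, adjusted p = 0.032). It was lost in 9 of the 19 alternatives, among them equal totals (limma, adjusted p = 0.099) and the removal of any control library or of β-CYP library 1 or 2, where limma's adjusted p ran between 0.060 and 0.112 and the log2 change between 0.12 and 0.16.

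Ces2e had 3750, 3723 and 3619 scaled counts in selenite plus β-CYP libraries, 5688, 5807 and 5699 in β-CYP libraries and 5020, 5000 and 5265 in control libraries. The 3 groups were separate, with controls in the middle. It rose by 0.17 ± 0.03 (log2, SE) in β-CYP livers against controls (limma, adjusted p = 0.0043), a call lost with equal totals (limma, adjusted p = 0.078). With selenite it fell by 0.63 ± 0.03 against β-CYP (limma, adjusted p = 3.8e-07) and by 0.46 ± 0.03 against controls (limma, adjusted p = 2.8e-06).

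Ces2c was the least abundant of the 10. Its scaled counts were 778, 761 and 725 in selenite plus β-CYP libraries, 1286, 1471 and 1414 in β-CYP libraries and 1345, 1351 and 1420 in control libraries. β-CYP and control libraries overlapped fully, and those with selenite were below all of them. The log2 change for β-CYP against control was 0.02 ± 0.06 (SE; limma, adjusted p = 0.90), with a 95% interval of -0.12 to 0.15. For selenite plus β-CYP it was -0.88 ± 0.06 against β-CYP (limma, adjusted p = 3.7e-06) and -0.86 ± 0.06 against control (limma, adjusted p = 3.5e-06).

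**Figure D3:**
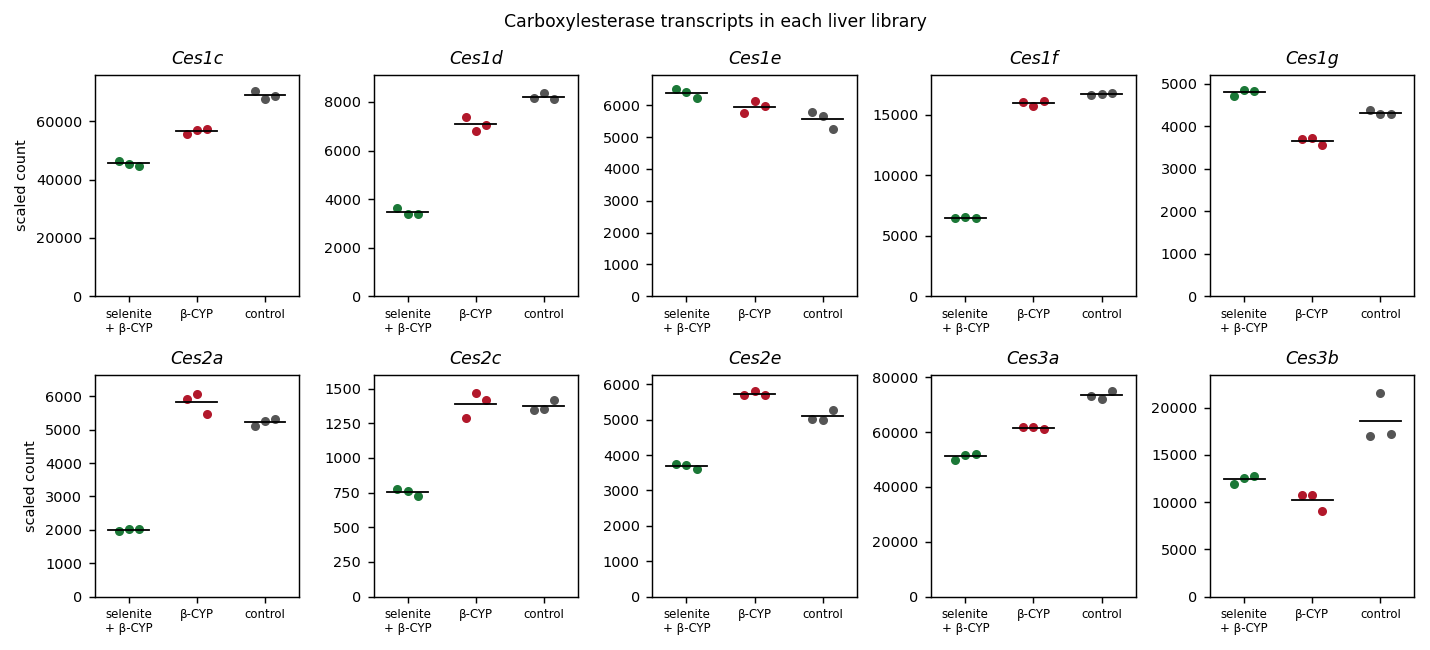
Scaled counts (y axis, from 0) of each carboxylesterase in the selenite plus β-CYP, β-CYP and control groups (x axis), with 1 point per library and a line at each group's mean. Ces1d, Ces1f, Ces2a and Ces2c show a marked drop with selenite, Ces1g is lowest under β-CYP, and 1 control library of Ces3b stands at 21510, above the other 2.

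The promoters of the 3 Ces2 genes are shown because these genes fell together with selenite, beside that of Ces2h, a relative that rose there. Each is 250 bases before to 50 bases after the gene start on the plus strand, from RefSeq, build GRCm38.p6. Capitals mark matches on either strand to any of 6 short motifs, which are AGTTCA and AGGTCA (half-sites of nuclear receptors), TGACNNNGC (the core of the antioxidant response element), GTTAAT (a half-site of HNF1), CCAAT and TATAAA. Of the 6, no pair of matches overlaps in these 4 promoters.
Ces2a, chr8:104733753-104734052: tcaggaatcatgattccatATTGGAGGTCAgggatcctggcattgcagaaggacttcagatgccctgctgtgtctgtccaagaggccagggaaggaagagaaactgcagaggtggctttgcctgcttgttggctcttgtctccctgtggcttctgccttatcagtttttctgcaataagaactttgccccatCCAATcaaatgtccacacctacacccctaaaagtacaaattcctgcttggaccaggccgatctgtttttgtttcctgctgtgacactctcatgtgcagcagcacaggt
Ces2c, chr8:104846818-104847117: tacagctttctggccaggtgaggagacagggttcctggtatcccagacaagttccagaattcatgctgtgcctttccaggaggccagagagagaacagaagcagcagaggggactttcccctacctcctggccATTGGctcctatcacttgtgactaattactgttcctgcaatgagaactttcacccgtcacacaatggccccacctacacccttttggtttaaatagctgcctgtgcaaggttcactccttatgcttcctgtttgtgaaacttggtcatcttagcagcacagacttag
Ces2e, chr8:104926010-104926309: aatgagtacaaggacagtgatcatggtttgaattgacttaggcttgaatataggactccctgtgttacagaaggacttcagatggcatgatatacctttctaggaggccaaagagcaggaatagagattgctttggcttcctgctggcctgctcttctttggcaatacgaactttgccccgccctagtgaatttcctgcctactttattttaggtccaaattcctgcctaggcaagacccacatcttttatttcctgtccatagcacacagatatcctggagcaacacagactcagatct
Ces2h, chr8:105000580-105000879: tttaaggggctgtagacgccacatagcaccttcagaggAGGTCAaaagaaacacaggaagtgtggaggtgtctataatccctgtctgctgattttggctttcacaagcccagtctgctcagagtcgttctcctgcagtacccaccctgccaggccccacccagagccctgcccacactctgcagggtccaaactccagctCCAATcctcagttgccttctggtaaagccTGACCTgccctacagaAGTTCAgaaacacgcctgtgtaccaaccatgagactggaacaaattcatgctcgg

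Ces2a held AGGTCA once and CCAAT in 2 places, Ces2c held CCAAT once, and Ces2e held none of the 6. Ces2h held AGTTCA once, AGGTCA in 2 places and CCAAT once. Some other Ces genes with a RefSeq promoter were lower in selenite plus β-CYP against control. Of these, Ces1b also held AGTTCA and Ces4a held AGGTCA, while Ces2g held neither. Ces2h was picked for display after its values were seen, and a link between motifs and levels was not tested. Of the 32851 promoters in the RefSeq table, 13.99% hold AGTTCA, 16.3% AGGTCA, 12.4% TGACNNNGC, 7.10% GTTAAT, 37.4% CCAAT and 13.6% TATAAA. Promoters of 7 of the 10 esterases were in that table, and 5 of the 7 held CCAAT, 2 TATAAA, 1 AGGTCA, 1 GTTAAT and 0 either of the remaining motifs.

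Ces3a and Ces3b are liver esterases whose natural substrates are less well known than those of the other subfamilies. Ces3a had 49871, 51462 and 52089 scaled counts in selenite plus β-CYP libraries, 62011, 61825 and 61140 in β-CYP libraries and 73010, 71985 and 75035 in control libraries. The groups were separate and followed the same order as for Ces1c. The log2 change was -0.25 ± 0.02 (SE) for β-CYP against control (limma, adjusted p = 3.7e-05) and -0.52 ± 0.02 for selenite plus β-CYP against control (limma, adjusted p = 9.6e-08). Between the treated groups it was -0.27 ± 0.02 (limma, adjusted p = 1.4e-05), a call lost with equal totals, at -0.14 (limma, adjusted p = 0.095), and with quantile normalization, at -0.06 (limma, adjusted p = 0.32).

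Ces3b had the largest change of the 10 under β-CYP alone, and its level with selenite lay between those of the other groups. The scaled counts were 11959, 12491 and 12728 in selenite plus β-CYP libraries, 10794, 10771 and 9090 in β-CYP libraries and 16965, 21510 and 17200 in control libraries. The groups did not overlap, and the control spread came mainly from library 2. β-CYP livers had 0.552 times the control level, a log2 change of -0.86 ± 0.09 (SE; limma, adjusted p = 0.00017). Livers with selenite plus β-CYP were at -0.57 ± 0.09 against control (limma, adjusted p = 0.0013). Against β-CYP they were 0.28 ± 0.09 higher, which did not pass (limma, adjusted p = 0.056), with a 95% interval of 0.07 to 0.49. It passed in 5 of the 19 alternatives, among them equal totals, at 0.41 (limma, adjusted p = 0.0029), quantile normalization, at 0.52 (limma, adjusted p = 0.0017), and the removal of control library 2, which enters only through the shared estimate of spread (limma, adjusted p = 0.015). Without control library 2 the changes against control were -0.75 ± 0.07 for β-CYP (SE; limma, adjusted p = 0.00030) and -0.46 ± 0.07 for selenite plus β-CYP (limma, adjusted p = 0.0022). After quantile normalization the change for selenite plus β-CYP against control was -0.32 (limma, adjusted p = 0.020).

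The relative spread of Ces3b was larger than counting error in each group. It came to 3.18%, 9.57% and 13.8% of the mean in selenite plus β-CYP, β-CYP and control libraries, against 0.868%, 0.988% and 0.757% from counting alone. For Ces1f the spread was 1.12%, 1.17% and 0.476%, against 1.20%, 0.789% and 0.793% from counting. Control library 2 had the lowest Ces3a value and the highest Ces3b value of the 3 controls.

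Of the other Ces genes only Ces1b and Ces2g had over 1000 scaled counts in control libraries. Of 10 that were listed 9 were in the table and 7 passed the filter. Among the 7, 0 rose and 2 fell in β-CYP against control, 1 rose and 2 fell in selenite plus β-CYP against β-CYP, and 1 rose and 4 fell in selenite plus β-CYP against control. The shares of all genes that rose and fell were 7.72% and 8.58%, 11.6% and 12.3%, and 14.4% and 14.5% in these comparisons. Their medians were -0.28, -0.15 and -0.21 (log2), beside -0.0013, 0.02 and 0.03 for all genes tested.

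The single rise was that of Ces2h. It had 1024, 1136 and 1093 reads in the selenite plus β-CYP libraries, 9, 11 and 4 reads in β-CYP libraries and 11, 9 and 11 reads in control libraries. The selenite plus β-CYP libraries were all far above the others, and β-CYP and control libraries overlapped. The log2 change was 6.91 ± 0.34 (SE) against β-CYP (limma, adjusted p = 3.6e-07) and 6.42 ± 0.34 against control (limma, adjusted p = 4.7e-07). Over the 19 alternatives these ranged between 5.84 and 7.18 and between 5.61 and 6.55, and the call held in each. Only 0.167% of its 50-base stretches occur in another Ces gene. The 10 pancreatic acinar markers were all higher in the same 3 libraries, and their part in the Ces2h result was not tested.

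Ces4a fell in all 3 comparisons. It averaged 65.4 ± 3.09 scaled counts in selenite plus β-CYP libraries, 149 ± 23.8 in β-CYP libraries and 251 ± 13.6 in control libraries (SD, n = 3 each). The log2 changes were -0.76 ± 0.14 (SE) for β-CYP against control (limma, adjusted p = 0.0046), -1.17 ± 0.14 for selenite plus β-CYP against β-CYP (limma, adjusted p = 0.00021) and -1.92 ± 0.14 against control (limma, adjusted p = 4.9e-06). Ces1b, the nearest relative of Ces1c, averaged 7643 ± 836 scaled counts in selenite plus β-CYP libraries, 10249 ± 189 in β-CYP libraries and 11600 ± 1767 in control libraries (SD, n = 3 each). It fell by 0.60 ± 0.10 (log2, SE) in selenite plus β-CYP livers against controls (limma, adjusted p = 0.0016). Its fall of 0.43 against β-CYP (limma, adjusted p = 0.012) was lost without selenite plus β-CYP library 1 (limma, adjusted p = 0.054) or library 3 (limma, adjusted p = 0.060) and with equal totals (limma, adjusted p = 0.11) or quantile normalization, at -0.17 (limma, adjusted p = 0.33).

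**Figure D4:**
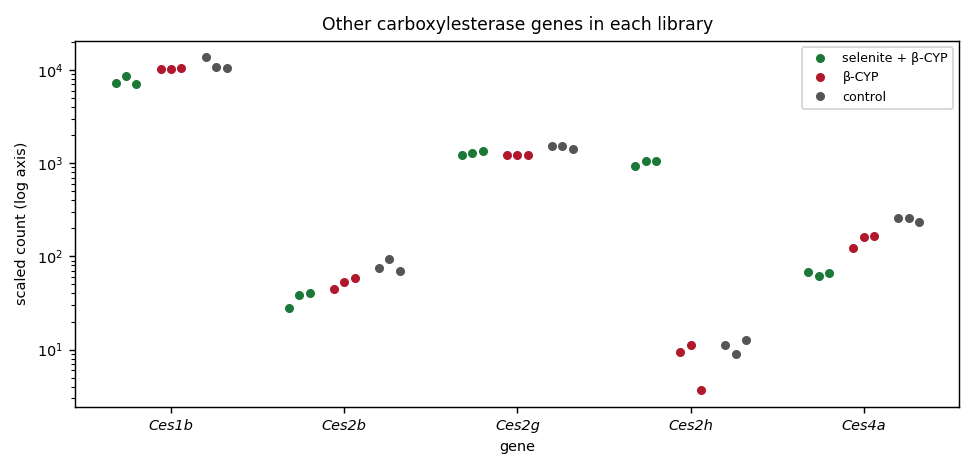
Scaled counts (y axis, log scale) of 5 other carboxylesterase genes (x axis) in each library of the selenite plus β-CYP, β-CYP and control groups, 1 point per library. Ces2h averages 1013 with selenite plus β-CYP, against 8.10 under β-CYP and 10.9 in controls, and Ces4a averages 65.4, 149 and 251 in the same groups.

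Of 20 other hydrolases of esters, epoxides and lipids, 4 rose and 8 fell in β-CYP against control, where 7.72% of all genes rose and 8.58% fell. For selenite plus β-CYP against β-CYP 1 rose and 11 fell, where the shares of all genes were 11.6% and 12.3%. Against control, 2 rose and 13 fell with selenite plus β-CYP, where they were 14.4% and 14.5%. The medians were -0.17, -0.22 and -0.32 (log2) in the same comparisons, beside -0.0013, 0.02 and 0.03 over all genes.

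Lipa, the acid lipase of lysosomes, changed by -0.56 ± 0.03 (log2, SE) under β-CYP alone (limma, adjusted p = 1.7e-06) and by -0.76 ± 0.03 with selenite plus β-CYP (limma, adjusted p = 9.0e-08), both against control. Lipc, the hepatic lipase that acts on lipoproteins, fell by 0.40 ± 0.04 in β-CYP livers against controls (limma, adjusted p = 6.9e-05). Pon1, a plasma esterase carried on high density lipoprotein, fell by 0.26 ± 0.03 in β-CYP livers (limma, adjusted p = 0.00013) and by 0.50 ± 0.03 in selenite plus β-CYP livers (limma, adjusted p = 7.0e-07) against controls.

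Cmbl, a hydrolase that activates some ester prodrugs, was at -0.71 ± 0.03 (log2, SE) in selenite plus β-CYP livers against β-CYP livers (limma, adjusted p = 1.1e-07) and at -0.67 ± 0.03 against controls (limma, adjusted p = 1.3e-07). The epoxide hydrolase gene Ephx1 fell by 0.45 ± 0.03 against β-CYP (limma, adjusted p = 2.2e-06) and by 0.60 ± 0.03 against controls (limma, adjusted p = 2.0e-07). Its relative Ephx2 fell by 0.32 ± 0.02 against β-CYP (limma, adjusted p = 4.8e-06), or by 0.08 after quantile normalization, and Faah, which hydrolyses fatty acid amides, fell by 0.44 ± 0.04 (limma, adjusted p = 1.9e-05). Nceh1, a cholesteryl ester hydrolase, had opposite signs, at -0.45 ± 0.06 for β-CYP against control (limma, adjusted p = 0.00042) and 0.64 ± 0.06 for selenite plus β-CYP against β-CYP (limma, adjusted p = 2.3e-05).

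Among 16 regulators of liver and drug-handling genes, 5 rose and 3 fell in β-CYP against control, beside 7.72% and 8.58% of all genes. Between the treated groups, selenite plus β-CYP against β-CYP, 2 rose and 8 fell, beside 11.6% and 12.3%, and in selenite plus β-CYP against control 2 rose and 5 fell, beside 14.4% and 14.5%. The medians were -0.02, -0.24 and -0.07 (log2), beside -0.0013, 0.02 and 0.03 over all genes. Nr1i2, which encodes the pregnane X receptor, rose by 0.51 ± 0.04 (SE) in β-CYP livers against controls (limma, adjusted p = 3.5e-05) and fell by 0.52 ± 0.04 in selenite plus β-CYP livers against β-CYP livers (limma, adjusted p = 2.0e-05). Hnf4a, a master regulator of hepatocyte genes, rose by 0.28 ± 0.03 (limma, adjusted p = 6.2e-05) and fell by 0.66 ± 0.03 (limma, adjusted p = 1.1e-07) in the same 2 comparisons. Nr1h4, the bile acid receptor gene, rose by 0.57 ± 0.08 in β-CYP livers against controls (limma, adjusted p = 0.00087).

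Ahr, the aryl hydrocarbon receptor, fell by 0.47 ± 0.07 (log2, SE) in β-CYP livers against controls (limma, adjusted p = 0.0011) and by 0.82 ± 0.07 in selenite plus β-CYP livers against β-CYP livers (limma, adjusted p = 1.8e-05). Srebf1, which drives fatty acid synthesis genes, fell by 0.70 ± 0.05 against β-CYP (limma, adjusted p = 3.2e-06). Nr1i3, which encodes the constitutive androstane receptor, fell by 0.57 ± 0.04 against β-CYP (limma, adjusted p = 7.4e-06).

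Of 9 target genes of such receptors, 3 rose and 0 fell in β-CYP against control, beside 7.72% and 8.58% of all genes. When selenite plus β-CYP was set against β-CYP, 1 rose and 4 fell, beside 11.6% and 12.3%, and in selenite plus β-CYP against control 2 rose and 2 fell, beside 14.4% and 14.5%. The medians were 0.61, -0.37 and 0.05 (log2), beside -0.0013, 0.02 and 0.03 over all genes. Cyp2b10, the best known target of the constitutive androstane receptor, rose by 2.19 ± 0.06 (SE) in β-CYP livers against controls (limma, adjusted p = 1.4e-08). In selenite plus β-CYP livers it was at -2.13 ± 0.06 against β-CYP (limma, adjusted p = 9.6e-09). Ces2a and Ces2e had these signs too, at 0.15 and 0.17 for the first comparison and -1.53 and -0.63 for the second. So did other listed genes, such as Nr1i2 and Hnf4a. The rise of Ces2a was lost in 9 of the 19 alternatives and that of Ces2e with equal totals. Against control, Ces2a and Ces2e were at -1.38 and -0.46 in selenite plus β-CYP livers. A cause shared with Cyp2b10 was not tested.

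Cyp3a11, a drug-oxidising enzyme gene induced through the pregnane X receptor, rose by 0.61 ± 0.02 (log2, SE) in β-CYP livers (limma, adjusted p = 7.8e-08) and by 0.56 ± 0.02 in selenite plus β-CYP livers (limma, adjusted p = 6.6e-08) against controls, and was at -0.05 ± 0.02 between the treated groups (limma, adjusted p = 0.17). Cyp4a14, which hydroxylates fatty acids, fell by 3.33 ± 0.36 in selenite plus β-CYP livers against controls (limma, adjusted p = 8.5e-05). Srxn1, a target of the oxidant sensor Nrf2, rose by 1.12 ± 0.13 in the same comparison (limma, adjusted p = 0.00014).

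Genes of lipoprotein assembly and lipid droplets, the pathway in which Ces1d acts, moved in both directions. Of 11 listed, 5 rose and 2 fell in β-CYP against control, beside 7.72% and 8.58% of all genes. With selenite plus β-CYP against β-CYP 2 rose and 7 fell, beside 11.6% and 12.3%, and in selenite plus β-CYP against control 3 rose and 3 fell, beside 14.4% and 14.5%. The medians were 0.12, -0.23 and -0.05 (log2), beside -0.0013, 0.02 and 0.03 over all genes. Plin2, which coats lipid droplets, rose in each comparison, by 0.87 ± 0.03 (SE) for β-CYP against control (limma, adjusted p = 1.4e-08), 0.41 ± 0.03 for selenite plus β-CYP against β-CYP (limma, adjusted p = 1.7e-06) and 1.28 ± 0.03 against control (limma, adjusted p = 5.0e-10). Cideb, which helps load lipid onto lipoprotein, fell by 0.48 ± 0.03 (limma, adjusted p = 1.8e-06) with selenite plus β-CYP against β-CYP. Dgat2, which makes triacylglycerol, fell by 0.53 ± 0.03 in selenite plus β-CYP livers against controls (limma, adjusted p = 4.6e-07).

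**Figure D5:**
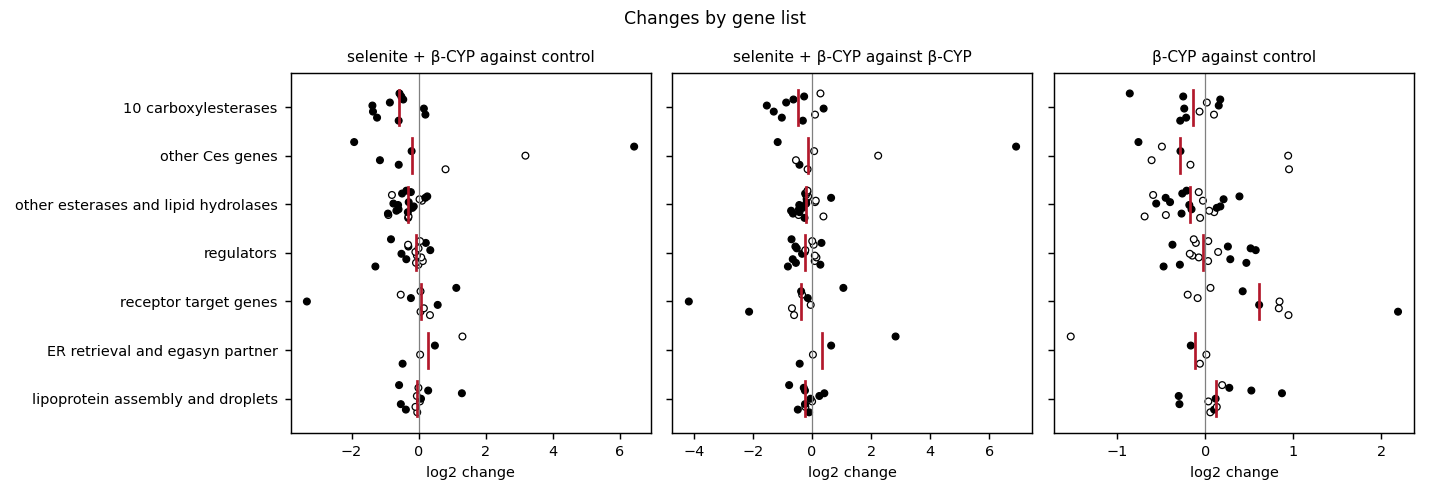
Log2 change (x axis) of each tested gene in the 10 carboxylesterases and 6 related lists (y axis), for 3 comparisons, where filled points have an adjusted p under 0.05 in limma and red bars mark list medians. The median of the 10 carboxylesterases is -0.59, -0.47 and -0.14 from left to right, and the point near 6.42 and 6.91 is Ces2h.

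For the gene of each subfamily with the highest mean scaled count over the 9 libraries, not corrected for length, the genes most like it in level were sought among 10510 genes, as a description. For Ces1c they were Cyp2c44, Nudt7 and Ugt2b5, each with a Pearson r of 0.998. Ces2e stood above Ces2a on this scale because of the selenite plus β-CYP libraries, where Ces2e averaged 3697 and Ces2a 2006. Ces2a was the higher in β-CYP libraries (5816 against 5731) and in control libraries (5226 against 5095). The genes most like Ces2e were Glud1 (r = 0.999), Cyp4a10 (0.998) and Sephs2 (0.996). For Ces3a they were Tsc22d3 (0.998), Tmprss6 (0.998) and Nxpe2 (0.997). The 9 points of each fall into 3 groups and share library and depth.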

How the data were processed

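RNA sequencing of 9 mouse liver libraries was analysed. HISAT and Cufflinks, on build mm9, are named in the submitters' processing notes, without versions or order. What the authors deposited is a matrix of log2 values, 25781 genes by 9 libraries. The deposited log2 values came out as log2 of (reads divided by a median-of-ratios factor, plus 1), and 100% of the values gave reads whole within 0.02. The series text names an Illumina instrument and the library protocol a BGISEQ one.

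Scaled counts were read from the deposited values. limma 3.58.1 (R 4.3.3) was fitted on log2(scaled count + 1) for 3 group means with an intensity trend, for the 20145 genes with a mean of at least 1, two-sided, with Benjamini-Hochberg adjustment over all of them and a threshold of 0.05. Fitted folds of genes with few reads depend on the added 1 and on libraries at 0. The fit was tested on simulated data. voom weights on the recovered reads called 3247, 4924 and 5840 genes in β-CYP against control, selenite plus β-CYP against β-CYP and selenite plus β-CYP against control, against 3285, 4805 and 5823.

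Each group was taken from the treatment label. Exon lengths, coding ends and overlaps came from GENCODE vM21 (GRCm38), matched by identifier, and promoters from RefSeq. No protein sequences were used here. The 10 genes, the lists and the markers were chosen with earlier results of these data known. The text names all 10 genes, passing list members from the smallest adjusted p on (at most 5 a list and comparison), and the 3 genes most like the gene of each subfamily with the highest mean scaled count. Naming Ces2h in the sequence section was decided after its values were seen. Alternatives were pseudocounts of 0.1 and 10, no filter, a minimum of 10, equal totals, quantile and trimmed-mean scaling, the 2 groups alone, a replicate block, voom weights, and leaving out each library.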

Additional observations from a re-analysis of the deposited data

How the results depend on the processing

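Over 19 alternatives for each of the 30 changes of the 10 genes, 546 kept their direction and their side of the threshold, 13 lost the call, 10 gained it and 1 reversed. The reversal was Ces2c in β-CYP against control, whose log2 change ranged from -0.02426 to 0.07302 when single libraries were left out. Calls of all 10 genes in selenite plus β-CYP against control kept their side in all 19. The numbers of the 10 called were 5 to 8, 8 to 9 and 10 in β-CYP against control, selenite plus β-CYP against β-CYP and selenite plus β-CYP against control. The replicate block called 2956, 4481 and 5506 of all genes in the same comparisons, against 3285, 4805 and 5823, and 6, 9 and 10 of the 10, against 7, 8 and 10. Same-numbered libraries correlated between -0.111 and 0.0942, and differently numbered ones between -0.118 and 0.175. No excess by number was seen, and whether same-numbered libraries share a batch was not tested. Depth limits Ces1a, Ces2f and Ces5a, with 0 to 8 reads a library. Outside the 10 genes, leaving out single libraries moved Ces2d-ps between -0.2698 and 2.639 in β-CYP against control and Ces1a between -0.9625 and 0.5805 in selenite plus β-CYP against β-CYP. In the same comparison equal totals turned Apob to 0.02472 and P4hb to 0.0756, and quantile normalization turned Gclc to 0.04319, Apob to 0.06929, Dgat2 to 0.02264 and P4hb to 0.1959. Quantile normalization also turned Ephx2 to 0.09328 in selenite plus β-CYP against control, and the cause was not tested.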
